A study of Saccharomyces cerevisiae with 8 samples.

Results

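The genes of the glyoxylate cycle and of gluconeogenesis are 10 of the 6600 features counted here, chosen by systematic name: MLS1 (YNL117W), ICL1 (YER065C), MDH2 (YOL126C), PCK1 (YKR097W), FBP1 (YLR377C), ACS1 (YAL054C), ADY2 (YCR010C), JEN1 (YKL217W), SFC1 (YJR095W) and CAT8 (YMR280C). All 10 had counts in every library and passed the filter on low counts. RNA was sequenced from late log cultures of budding yeast grown for 16 h in YPD, a rich medium with glucose, to ask which transcripts differ in strains with a changed histone residue and a changed chronological lifespan. There were 2 libraries of H4K16Q, in which a lysine of the histone H4 tail is replaced by glutamine, 2 of H4H18A, in which a histidine of the same tail is replaced by alanine, and 2 of their control, the strain labelled WT H4. There was 1 library of H3E50A, in which a glutamate of histone H3 is replaced by alanine, and 1 of its control, the strain labelled WT H3. The mutants and the WT strains alike derive from JDY86, a MATa haploid without the HHT1-HHF1 gene pair (replaced by NatMX4), in which a synthetic histone cassette marked with URA3 stands at HHT2-HHF2. They also share the his3Δ200, leu2Δ0, trp1Δ63, ura3Δ0 and met15Δ0 alleles, a deletion printed as K2Δ0 in the methods, and can1::MFA1pr-HIS3. Each mutant is a strain from a collection, and a further isolate of it was not analysed here.

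Yeast that grows on glucose represses these genes. When glucose runs out, cells turn to the ethanol and acetate they made, and 2-carbon units have to be built into larger molecules. The glyoxylate cycle does this by skipping the steps of the tricarboxylic acid cycle that release carbon dioxide, through isocitrate lyase (ICL1), malate synthase (MLS1) and a cytosolic malate dehydrogenase (MDH2). Gluconeogenesis then makes sugar phosphates from oxaloacetate, through phosphoenolpyruvate carboxykinase (PCK1) and fructose-1,6-bisphosphatase (FBP1). ACS1 encodes an acetyl-CoA synthetase, ADY2 an acetate transporter, JEN1 a carrier of lactate and pyruvate and SFC1 a mitochondrial succinate-fumarate carrier. CAT8 encodes a zinc cluster activator that the Snf1 kinase turns on and that binds the carbon source response element (CSRE) in promoters of this group.

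The CSRE is shown here because it is the promoter sequence that names several of these genes as targets of Cat8 and its relative Sip4. The 600 bases before each coding start were read from the R64 RefSeq genome, the build the authors used, and searched on both strands for the published CSRE consensus. It was found in 5 of the 10 genes, against 33 of 5895 gene windows (0.56%). As the CSRE was chosen because it names several of these genes as targets, this share is a description only. Each site is given 5′ to 3′ on the strand of its gene with 14 bases on either side, and the capitals mark the match, which is in reverse orientation in the first line of MLS1 and in the first line of MDH2.
MLS1, chrXIV:405813-405852, plus strand: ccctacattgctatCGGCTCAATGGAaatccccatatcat
MLS1, chrXIV:405843-405882, plus strand: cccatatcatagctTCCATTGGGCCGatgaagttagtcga
ICL1, chrV:287288-287327, minus strand: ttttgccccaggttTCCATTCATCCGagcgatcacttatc
MDH2, chrXV:83328-83367, minus strand: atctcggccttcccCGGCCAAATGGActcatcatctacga
MDH2, chrXV:83296-83335, minus strand: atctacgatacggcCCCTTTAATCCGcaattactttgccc
MDH2, chrXV:83273-83312, minus strand: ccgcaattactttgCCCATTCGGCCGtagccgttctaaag
PCK1, chrXI:630656-630695, plus strand: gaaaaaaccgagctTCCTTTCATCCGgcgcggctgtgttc
ADY2, chrIII:133611-133650, minus strand: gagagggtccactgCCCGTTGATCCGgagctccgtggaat

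MDH2 held 3 matches, MLS1 held 2, and ICL1, PCK1 and ADY2 held 1 each, between 531 and 367 bases before the coding start. FBP1, ACS1, JEN1, SFC1 and CAT8 held no match, which says only that these letters are not in the window. The core bound by the glucose repressor Mig1 (GCGGGG or GTGGGG, both strands) was found before FBP1, ADY2 and CAT8, 3 of the 10 genes, against 16.7% of gene windows. The stress response element (AGGGG, both strands), bound by Msn2 and Msn4, was found before 7 of the 10, against 40.1% of windows. That of MDH2 at 402 to 398 bases overlaps the CSRE at 401 to 390. A match is a description of the sequence, and binding was not measured in these cultures.

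**Figure D1:**
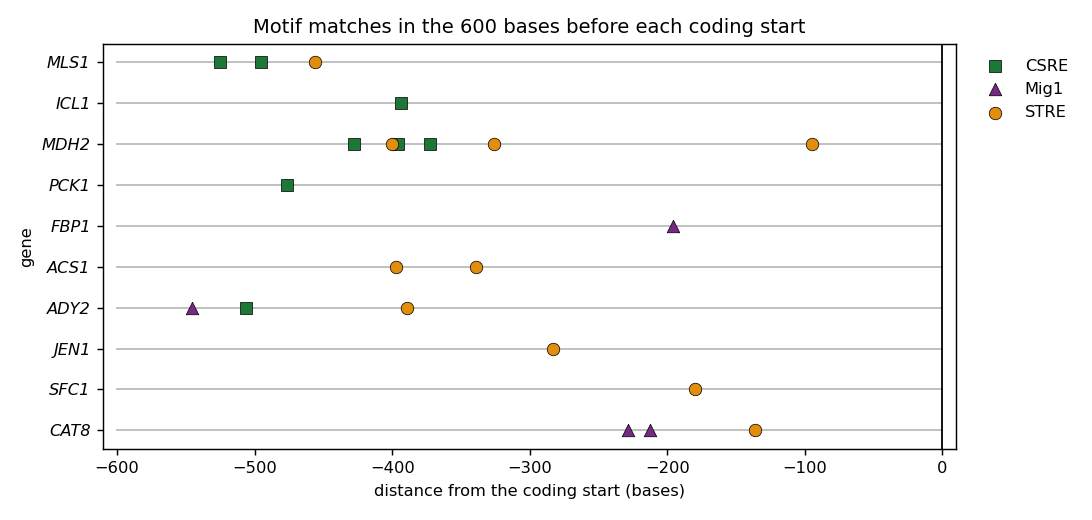
Motif matches in the 600 bases before the coding start of each gene. The x axis is the distance from the coding start in bases, each row is a gene, and squares, triangles and circles stand for CSRE, Mig1 and stress response element matches. CSRE matches lie in 5 of the 10 rows, 3 of them before MDH2.

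Libraries of H4K16Q held 8645533 to 10529401 counts, those of H4H18A 621770 to 852659 and those of WT H4 1196115 to 4296089, while H3E50A held 4256296 and WT H3 1561683. Levels are given in CPM, the count divided by library size, after scaling the libraries to each other by TMM. Since 0 counts can go with a true level of up to 3, levels under 0.217 CPM in the deepest library, and under 7.06 CPM in that of least depth, H4H18A replicate 1, could not be told from absence by counting error alone. Features that overlap ribosomal RNA genes took 33.9% of the counts in WT H3 and 1.88% in H3E50A. Replicates 1 and 2 had 0.254% and 0.180% in H4K16Q, 16.3% and 33.6% in H4H18A, and 0.990% and 21.2% in WT H4. YGL088W took 22.9% in WT H4 replicate 1 and 15.7% in H4H18A replicate 1. In the H4 mutants the strain field of the labels says H3 where the titles say H4, and the titles were followed. LEU2 had 0 counts in every library, as the genotype has it. HHT1 had 32 to 4609 counts and HHF1 had 12 to 1286, although the genotype lacks both. The source of these counts was not tested. The 6 a-cell markers, which a MATa strain expresses, summed to 119 and 30.0 CPM in H4K16Q, to 82.4 and 39.0 CPM in H4H18A, to 422 and 1028 CPM in WT H4, to 1066 CPM in H3E50A and to 949 CPM in WT H3. The methods call the replicates biological and independently prepared, and the labels give no date, lane or culture density. In RNA from a whole culture, fewer cells that express a gene and less RNA per cell cannot be told apart.

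Libraries of the same strain stood far apart in these genes. The 10 genes summed to 14110.4 and 473 CPM in replicates 1 and 2 of H4K16Q, to 3824 and 213 CPM in those of H4H18A, and to 5357 and 188 CPM in those of WT H4. H3E50A stood at 21310 CPM and WT H3 at 255 CPM. In each of the 10 genes, H3E50A and replicate 1 of the 3 H4 strains lay above WT H3 and replicate 2 of the 3 H4 strains, a split chosen after the values were seen. Among all 5962 genes with enough counts in the 8 libraries, 8% showed this split. The highest of the 8 libraries was H3E50A for 7 genes, H4K16Q replicate 1 for MDH2 and ACS1, and WT H4 replicate 1 for ADY2.

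**Figure D2:**
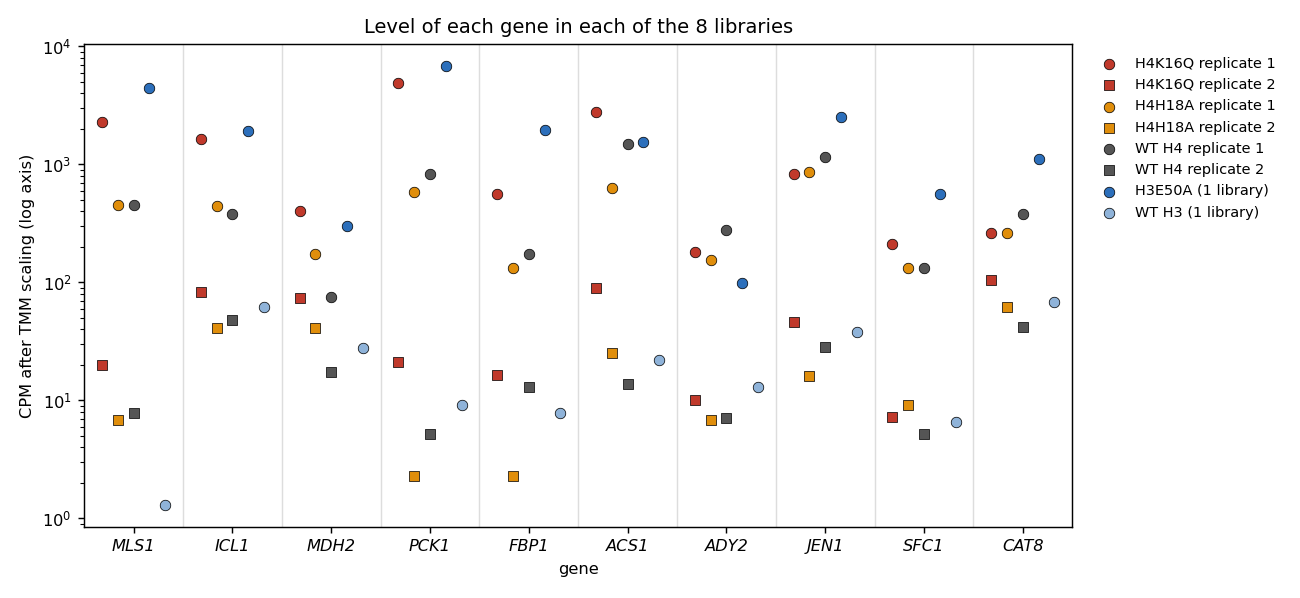
Level of each gene in each library, in CPM after TMM scaling on a log axis. Circles are replicate 1 or a lone library, squares are replicate 2, and colours are strains. In each gene the H3E50A circle and the 3 circles of the H4 strains lie above the 3 squares and the pale circle of WT H3.

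The enzymes of the glyoxylate cycle each showed this, MDH2 over the narrowest range of the 10 genes. MLS1 (chromosome XIV, 406358 to 408022, a single coding exon) was at 2306 and 19.9 CPM in H4K16Q, 457 and 6.88 CPM in H4H18A, 452 and 7.80 CPM in WT H4, 4443 CPM in H3E50A and 1.30 CPM in WT H3, where it had 2 counts, under the limit of 3. ICL1 (chromosome V, 285241 to 286914) was at 1649.7 and 83.3 CPM in H4K16Q, 442 and 41.3 CPM in H4H18A, 383 and 48.1 CPM in WT H4, 1917 CPM in H3E50A and 61.9 CPM in WT H3. The strains overlapped in both genes, since the high and the low library of each H4 strain lay far apart. MDH2 (chromosome XV, 81787 to 82920) was at 400.1 and 74.1 CPM in H4K16Q, 174 and 41.3 CPM in H4H18A, 75.7 and 17.5 CPM in WT H4, 299 CPM in H3E50A and 28.0 CPM in WT H3. Here the lower H4K16Q library almost reached the higher WT H4 library, and the strains still overlapped.

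Both enzymes of gluconeogenesis were lowest in H4H18A replicate 2 and highest in H3E50A. PCK1 (chromosome XI, 631152 to 632801) was at 4943 and 21.1 CPM in H4K16Q, 579 and 2.29 CPM in H4H18A, 829 and 5.20 CPM in WT H4, 6833 CPM in H3E50A and 9.12 CPM in WT H3. FBP1 (chromosome XII, 873746 to 874792) was at 565 and 16.4 CPM in H4K16Q, 132 and 2.29 CPM in H4H18A, 175 and 13.0 CPM in WT H4, 1944 CPM in H3E50A and 7.81 CPM in WT H3. The lower H4H18A library held 2 counts of either gene, under the limit of 3, so its level is known only loosely. Per kilobase of coding length, which allows genes to be compared, PCK1 was rank 21 of 5716 genes in H4K16Q replicate 1 and rank 23 in H3E50A. The same gene was rank 4282 in H4K16Q replicate 2, 5482 in H4H18A replicate 2, 5489 in WT H4 replicate 2 and 5381 in WT H3. A gene near the top of the transcriptome in some libraries was thus near the bottom in others.

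ACS1 and the carriers showed the same split. ACS1 (chromosome I, 42881 to 45022) was at 2764 and 89.8 CPM in H4K16Q, 635 and 25.2 CPM in H4H18A, 1489.9 and 13.6 CPM in WT H4, 1563 CPM in H3E50A and 22.1 CPM in WT H3. JEN1 (chromosome XI, 22234 to 24084) was at 826 and 45.8 CPM in H4K16Q, 854 and 16.1 CPM in H4H18A, 1159 and 28.6 CPM in WT H4, 2535 CPM in H3E50A and 37.8 CPM in WT H3. Unlike the enzymes, JEN1 had its highest H4 library in WT H4, as ADY2 and CAT8 did. ADY2 (chromosome III, 132273 to 133124) was at 180.5 and 10.1 CPM in H4K16Q, 155 and 6.88 CPM in H4H18A, 279.8 and 7.15 CPM in WT H4, 98.8 CPM in H3E50A and 13.0 CPM in WT H3. SFC1 (chromosome X, 609773 to 610741) was at 212 and 7.29 CPM in H4K16Q, 132 and 9.17 CPM in H4H18A, 132 and 5.20 CPM in WT H4, 562 CPM in H3E50A and 6.51 CPM in WT H3. ADY2 was the gene of the 10 in which H3E50A lay below all 3 replicate 1 libraries of the H4 strains.

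CAT8 (chromosome XIII, 827028 to 831329), the activator, had the narrowest range after MDH2. It was at 264 and 105 CPM in H4K16Q, 264 and 61.9 CPM in H4H18A, 383 and 41.6 CPM in WT H4, 1114 CPM in H3E50A and 67.7 CPM in WT H3. Between the low and the high library of a strain CAT8 differed 2.51-fold in H4K16Q (95% counting interval 2.32 to 2.73), 4.26-fold in H4H18A (3.05 to 6.003) and 9.21-fold in WT H4 (7.18 to 12.02). For PCK1 the same ratio was 234-fold in H4K16Q (199 to 278), 252-fold in H4H18A (69.1 to 2096) and 159-fold in WT H4 (80.8 to 369.6). The intervals of CAT8 lay below those of PCK1, one of its known targets, in each of the 3 strains. Each of the 10 genes is a single coding exon with no other RefSeq gene overlapping it. The longest identical stretch shared with a close relative was 20 bases, between ACS1 and ACS2, against reads of 100 bases.

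As log2 ratios with a prior count of 2, replicate 1 over replicate 2 had a median over the 10 genes of 4.54 within H4K16Q, 4.52 within H4H18A and 4.87 within WT H4. Over all 5962 genes the medians were 0.10 or less. The ratio was above 2 in all 3 strains for 9 of the 10 genes, against 1.19% of all genes. CAT8 was the exception, at 1.33 within H4K16Q, 2.08 within H4H18A and 3.19 within WT H4. Since no pair of replicates agreed within counting error, each library counted as a sample of its own.

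**Figure D3:**
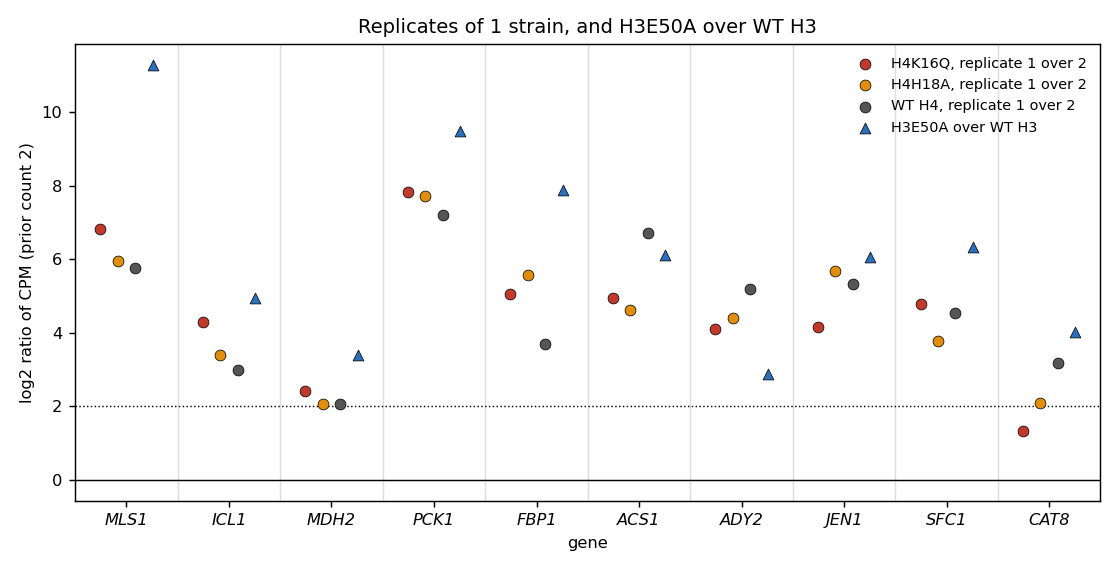
Log2 ratio of replicate 1 over replicate 2 in each H4 strain (circles) and of H3E50A over WT H3 (triangles), with a prior count of 2, for each gene. The dotted line marks a log2 ratio of 2. Of the circles, that of CAT8 in H4K16Q lies below it, and the triangles run from 2.88 for ADY2 to 11.29 for MLS1.

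Markers of late culture differed between the same libraries. HSP12, HSP26, CTT1, SPI1, SIP18 and DDR2, which yeast induces as glucose runs out and under stress, summed to 19270.5 and 6329.5 CPM in H4K16Q, 28998 and 965 CPM in H4H18A, 25766 and 553 CPM in WT H4, 69773 CPM in H3E50A and 1339 CPM in WT H3. Of these 6 markers, 5 were higher in replicate 1 of all 3 H4 strains, against 17.1% of all genes. The 10 genes, this list and those below were chosen with earlier results of these data known, so such shares are descriptions. Of the defining markers HSP12 and HSP26, 0 were at 0 in any library. HSP12 was at 29594 CPM in H3E50A and 469 CPM in WT H3, and at 11591 and 257 CPM in WT H4. For H4H18A its levels were 15104 and 586 CPM. The HSP12 levels of H4K16Q lay closer, 7073 and 3678 CPM, a log2 ratio of 0.94 beside a median of 4.54 for the 10 genes. The marker that broke the pattern was SPI1, with 331 and 498 CPM for H4K16Q. SPI1 was higher in replicate 1 of H4H18A (1737 and 119 CPM) and of WT H4 (2764 and 61.1 CPM). HXT5, a hexose transporter made when growth slows, was at 2125 and 331 CPM in H4K16Q, 2186 and 35.6 CPM in H4H18A, 3183 and 37.0 CPM in WT H4, 6214 CPM in H3E50A and 54.7 CPM in WT H3. HXT3, a low-affinity transporter made while glucose is present, was at 1588 and 997 CPM in H4K16Q, 598 and 1512 CPM in H4H18A, 311 and 1069.8 CPM in WT H4, 104 CPM in H3E50A and 1299.7 CPM in WT H3. HXT7, a high-affinity transporter, was at 147 and 2482 CPM in H4K16Q, 1254 and 463 CPM in H4H18A, 839 and 307 CPM in WT H4, 316 CPM in H3E50A and 622 CPM in WT H3. HXT6 went the other way in H3E50A, at 669 CPM against 170 CPM in WT H3. It was at 400 and 574 CPM in H4K16Q, 468 and 98.6 CPM in H4H18A and 1362 and 54.6 CPM in WT H4. Sequence shared between HXT6 and HXT7 was not checked. HXT1 ran from 28.7 to 407 CPM in the H4 mutants, against 27.9 to 46.1 CPM in WT H4, and was at 13.1 CPM in H3E50A and 39.7 CPM in WT H3. Among the late culture markers the fitted log2 fold change ran from -1.78 for SPI1 to 2.43 for SIP18 in H4K16Q against WT H4, from -1.64 for DDR2 to 1.26 for SIP18 in H4H18A against WT H4 and from -1.17 for SPI1 to 1.93 for DDR2 in H4K16Q over H4H18A. In H3E50A over WT H3 the log2 ratio was 3.74 for SPI1, 5.45 for HSP26 and 9.93 for SIP18. The list labelled glucose side held HXT1 to HXT7, HXK1 and SUC2, thus also HXT5, made when growth slows. Among these 9 genes, SUC2, the invertase, was lowest in both H4 mutants, at -1.75 in H4K16Q and -1.44 in H4H18A. The highest were HXT1 in H4K16Q, at 2.65, and HXT4 in H4H18A, at 1.05. In H4K16Q over H4H18A these genes ran from -0.31 for SUC2 to 1.98 for HXT1, and in H3E50A over WT H3 from -3.74 for HXT4 to 6.82 for HXT5. In both lists 0 genes were called, beside 0% of all genes. The part of culture state in the levels of the 10 genes was not tested.

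The comparison of H4K16Q with WT H4 asks whether the changed tail residue goes with a changed level of these genes. With edgeR (quasi-likelihood test, Benjamini-Hochberg adjustment over 5669 genes), 0 of the 10 genes were called in H4K16Q against WT H4, and 0% of all genes were (adjusted p = 0.997 for each of the 10). Before adjustment, 0 of the 10 had p under 0.05, against 3.72% of all genes. DESeq2 called 0 of the 10 after adjustment, beside 12 of 6338 genes. Over the alternatives that left out no library, 0 or 1 of the 10 had an unadjusted p under 0.05. In DESeq2 this was 1 of the 10, beside 371 of 6338 genes. Both H4K16Q libraries lay above both WT H4 libraries in 0 of the 10 genes, against 12.6% of all genes. The fitted log2 fold change was above 0 in 7 of the 10, with a median of 1.26, beside a median of -0.10 over all genes. That median was -3.001 without H4K16Q replicate 1 and 4.27 without WT H4 replicate 1, so that the direction depended on which library was left out.

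PCK1 had the highest fitted log2 fold change in H4K16Q, 2.55, with a standard error of 2.59 and a 95% interval from -3.26 to 8.37. Its mean was 2482 ± 3481 CPM in H4K16Q and 417 ± 583 CPM in WT H4 (SD, n = 2 each), a difference below the SD of H4K16Q. MDH2 had a log2 fold change of 2.32 with the smallest standard error of the 10, 1.07, and an interval from -0.085 to 4.72 (unadjusted p = 0.0571, adjusted p = 0.997 in edgeR's quasi-likelihood test). MLS1 stood at 2.32 (standard error 2.24), ICL1 at 1.99 (1.58), FBP1 at 1.61 (1.74), ACS1 at 0.91 (2.03) and SFC1 at 0.65 (1.59). The carriers ADY2, at -0.61 (1.65), and JEN1, at -0.46 (1.89), and the activator CAT8, at -0.22 (1.09), were below 0. Intervals of this width span a rise and a fall of many fold for 9 of these genes, so a p over the threshold does not show that levels were alike.

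Set against the library of the same number, H4K16Q was higher than WT H4 in both numbers for 7 of the 10 genes, against 21.5% of all genes. The median log2 ratio was 1.29 in replicate 1, with 7 genes above 0, and 1.04 in replicate 2, with 10 above 0. Over all genes the medians were -0.086 and -0.035. MDH2 stood at 2.40 in replicate 1 and 2.05 in replicate 2, and PCK1 at 2.58 and 1.93. ADY2 stood at -0.63 and 0.47, JEN1 at -0.49 and 0.67, and CAT8 at -0.53 and 1.33, so these genes differed in sign between the numbers. The labels do not say that a number marks a shared day or culture.

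In H4H18A against WT H4, the same edgeR test called 0 of the 10 genes and 0% of all genes, with an adjusted p of at least 0.999 for each of the 10. At an unadjusted p under 0.05 there were 0 of the 10, against 2.22% of all genes. DESeq2 called 0 of the 10, beside 0 of 6338 genes. Both H4H18A libraries lay above both WT H4 libraries in 0 of the 10, against 10.3% of all genes. The fitted log2 fold change was above 0 for MDH2, at 1.18 (standard error 1.05), and ICL1, at 0.15 (1.53), and below 0 for the other 8, down to -1.20 for ACS1 (2.05). The median was -0.43, beside -0.088 over all genes. Leaving out H4H18A replicate 1 gave -4.64, and leaving out WT H4 replicate 1 gave 3.60. MDH2 was 1.20 higher on the log2 scale than WT H4 in replicate 1 and 1.21 higher in replicate 2. This comparison shares the WT H4 libraries with that of H4K16Q.

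**Figure D4:**
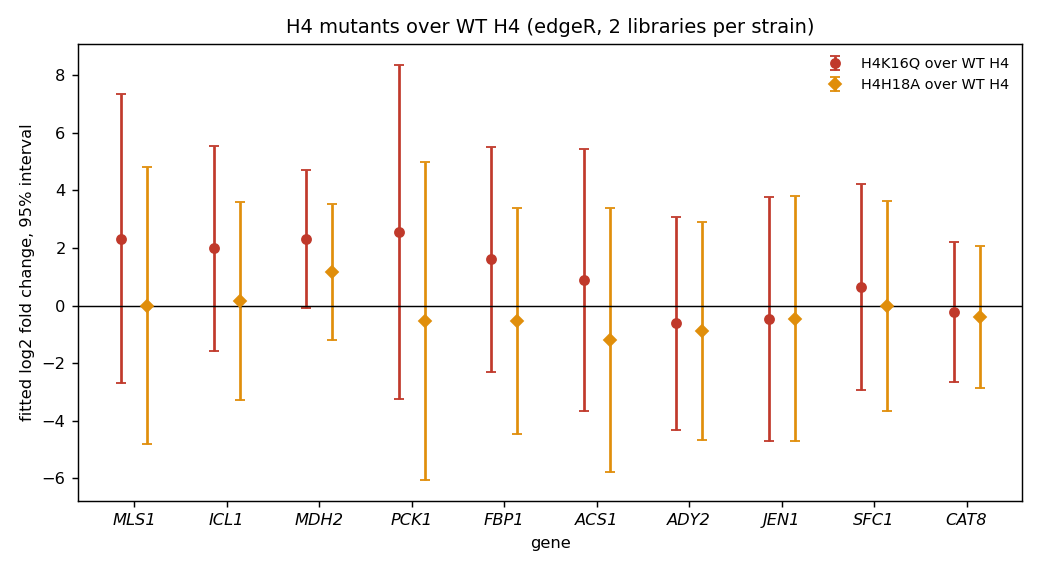
Fitted log2 fold change of H4K16Q (circles) and H4H18A (diamonds) over WT H4 for each gene, with 95% intervals from edgeR over 2 libraries per strain. Each interval includes 0, and that of MDH2 in H4K16Q comes nearest to leaving it out, at -0.085.

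The mutants were also compared with each other, which uses no WT library. In H4K16Q against H4H18A, the same edgeR test called 0 of the 10 genes and 0% of all genes. At an unadjusted p under 0.05 there were 0 of the 10, against 1.55% of all genes. DESeq2 called 0 of the 10, beside 6 of 6338 genes. The replicate block gave 2 of the 10 (99 of 5669 genes). Both H4K16Q libraries lay above both H4H18A libraries in 0 of the 10, against 14.6% of all genes. The median log2 fold change was 1.49, beside 0.068 over all genes, and 9 of the 10 were above 0. PCK1 was highest, at 3.09 (standard error 2.65, interval -2.87 to 9.04), then MLS1 at 2.32 (2.24), FBP1 at 2.14 (1.80) and ACS1 at 2.10 (2.10). JEN1 was lowest, at -0.0061 (1.89). Without H4K16Q replicate 1 the median was -2.39, and without H4H18A replicate 1 it was 4.58.

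H3E50A and WT H3 had 1 library each, so their ratio has no replicate check and no p-value, and the intervals that follow cover counting error only. All 10 genes were higher in the H3E50A library, with a median log2 ratio of 6.08, beside 0 over all genes. The ratio was above 2 in 10 of the 10, against 8.52% of all genes. MLS1 had 19381 counts in H3E50A and 2 counts in WT H3, a ratio of 3412 with an exact 95% interval from 944 to 28176. PCK1 was 749.6-fold higher (447 to 1371) and FBP1 249-fold higher (142 to 482). SFC1, ACS1 and JEN1 were 86.3-fold (46.9 to 180.3), 70.6-fold (50.5 to 102) and 67.1-fold (51.9 to 88.4) higher. ICL1 was 31.0-fold (25.3 to 38.3), CAT8 16.5-fold (13.5 to 20.2), MDH2 10.7-fold (7.89 to 14.8) and ADY2 7.59-fold higher (4.85 to 12.5).

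These ratios have to be read beside the difference between libraries of 1 strain. H3E50A over WT H3 exceeded the replicate 1 over replicate 2 ratio of all 3 H4 strains in 8 of the 10 genes, against 22.6% of all genes. ACS1, at a log2 ratio of 6.11 against 6.72 between the WT H4 replicates, and ADY2, at 2.88 against 4.10 to 5.20 in the H4 strains, did not exceed it. For MLS1 the log2 ratio was 11.29 in H3E50A over WT H3, and 5.77 to 6.82 between replicates. With the mean of the 3 WT libraries as the control, the median log2 ratio of the 10 genes was 4.43. Strain and library cannot be told apart with 1 library of H3E50A.

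Of the 14 regulators of derepression, 0 were called in either H4 mutant, and 3 had a log2 ratio above 2 in H3E50A over WT H3, beside 0% of all genes called and 8.52% above 2. SIP4, the other activator that binds the CSRE, was at 45.5 and 6.10 CPM in H4K16Q, 9.41 and 6.88 CPM in H4H18A, 22.4 and 6.50 CPM in WT H4, 93.3 CPM in H3E50A and 3.26 CPM in WT H3. HAP4, which activates respiration genes, had a log2 ratio of 3.37 in H3E50A over WT H3, and ADR1, an activator of ethanol use, of 1.81. HXK2, a hexokinase that also takes part in repression, was lowest, at -3.32, with 87.4 CPM in H3E50A and 879 CPM in WT H3. SNF1, RDS2 and MIG1 stood at 0.65, 1.24 and 0.22. The ratio between replicates was above 2 in all 3 H4 strains for 0 of these 14 genes, beside 1.19% of all genes. In H4K16Q against WT H4, the list ran from -0.40 for REG1, a subunit of the phosphatase that opposes Snf1, to 1.18 for HXK2. In H4H18A it ran from -1.03 for SIP2 to 0.89 for GAL83, both subunits of the Snf1 complex, and in H4K16Q over H4H18A from -0.45 for GAL83 to 1.69 for SIP4.

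Of 10 partner enzymes that make acetyl-CoA or act beside the cycle, 0 were called in either H4 mutant, 6 had a log2 ratio above 2 in H3E50A over WT H3, and 2 were above 2 between replicates of all 3 H4 strains, beside 0%, 8.52% and 1.19% of all genes. IDP2, a cytosolic isocitrate dehydrogenase, was at 468 and 21.0 CPM in H4K16Q, 165 and 16.1 CPM in H4H18A, 212 and 13.0 CPM in WT H4, 1323 CPM in H3E50A and 9.12 CPM in WT H3. CIT2, the peroxisomal citrate synthase, was at 1794 and 368 CPM in H4K16Q, 1174 and 94.0 CPM in H4H18A, 2229 and 42.2 CPM in WT H4, 1494 CPM in H3E50A and 83.3 CPM in WT H3. ADH2, which oxidizes ethanol, had the highest log2 fold change of the list in H4K16Q, 2.77 (standard error 1.15), with 1186 and 314 CPM in H4K16Q against 178 and 39.0 CPM in WT H4. ADH2 differed little in H3E50A, at 168 CPM, against 94.4 CPM in WT H3. ACS2, the acetyl-CoA synthetase used on glucose, was at 275 and 467 CPM in H4K16Q, 325 and 303 CPM in H4H18A and 94.8 and 285 CPM in WT H4, where ACS1 had its higher level in replicate 1 of all 3 strains. ALD6, the cytosolic aldehyde dehydrogenase that makes acetate, had a log2 ratio of 3.18 in H3E50A over WT H3, and log2 fold changes of 0.66 in H4K16Q and -0.34 in H4H18A against WT H4. The lowest of the list were MDH3, at -0.30 in H4K16Q, CIT2, at -0.85 in H4H18A, and DAL7, at -0.43 in H3E50A over WT H3, and in H4K16Q over H4H18A the list ran from -0.05 for ALD4 to 2.69 for ADH2. DAL7 and ICL2, relatives of MLS1 and ICL1 with other roles, stayed at 9.10 to 26.6 CPM and 16.1 to 64.3 CPM over the 8 libraries.

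The 4 genes of the carnitine shuttle, which carries acetyl units into mitochondria, were above 2 between replicates in all 3 H4 strains in 4 of 4 cases and above 2 in H3E50A over WT H3 in 4 of 4, beside 1.19% and 8.52% of all genes. YAT1 was at 933 and 224 CPM in H4K16Q, 2492 and 48.2 CPM in H4H18A, 6741 and 20.1 CPM in WT H4, 2709 CPM in H3E50A and 32.6 CPM in WT H3. CAT2 was at 301 and 50.6 CPM in H4K16Q, 405 and 3.44 CPM in H4H18A, 755 and 20.8 CPM in WT H4, 615 CPM in H3E50A and 18.2 CPM in WT H3. The shuttle had fitted medians of -1.02 in H4K16Q and -0.83 in H4H18A against WT H4, with 0 genes called. Its 4 genes, too, were chosen with earlier results of these data known. YAT1 was lowest, at -2.56 in H4K16Q and -1.42 in H4H18A, and the highest were CRC1 in H4K16Q, at 0.41, and YAT2 in H4H18A, at -0.64. In H4K16Q over H4H18A the shuttle ran from -1.15 for YAT1 to 1.12 for CRC1, and in H3E50A over WT H3 from 4.87 for CRC1 to 6.36 for YAT1. Of 10 other carriers and anaplerotic enzymes, 0 were called in either H4 mutant and 3 were above 2 in H3E50A, beside 0% and 8.52% of all genes, led by the pyruvate carboxylase PYC1 at a log2 ratio of 5.15, with 10947 CPM in H3E50A and 309 CPM in WT H3. Its relative PYC2 stood at 0.15. ATO2, a relative of ADY2, was at 3.71 and ATO3 at -1.19. ATO3 had the highest log2 fold change of these carriers in H4K16Q, 1.99 (standard error 0.67), and MAE1, the malic enzyme, in H4H18A, 1.10. The lowest were DIC1 in H4K16Q, at -0.43, ATO2 in H4H18A, at -0.75, and MAE1 in H3E50A over WT H3, at -1.70, and in H4K16Q over H4H18A the carriers ran from -0.48 for PYC1 to 1.12 for ODC1.

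The GID complex, which marks FBP1 and other gluconeogenic enzymes for degradation when glucose returns, had 0 of 8 genes called in either H4 mutant and 2 of 8 above 2 in H3E50A over WT H3, beside 0% and 8.52% of all genes. Its log2 ratios in H3E50A ran from 0.59 for VID24, the subunit that recognizes substrates, to 2.84 for FYV10, with UBC8 at 1.98. FYV10 was lowest and VID24 highest in the H4 comparisons, at -1.51 and 0.90 in H4K16Q against WT H4, -0.82 and 0.40 in H4H18A against WT H4, and -0.69 and 0.50 in H4K16Q over H4H18A. Of the 7 genes listed for the opposing glycolytic steps and their control, 0 were called in either H4 mutant, beside 0% of all genes. In H3E50A over WT H3, 1 was above 2, beside 8.52% of all genes. This was FBP26, at 2.13, which encodes no glycolytic enzyme. CDC19, the main pyruvate kinase, was at 2849 and 13560.5 CPM in H4K16Q, 7488 and 3733 CPM in H4H18A, 789 and 2848 CPM in WT H4, 1493 CPM in H3E50A and 4496 CPM in WT H3. PYK2, the minor pyruvate kinase, had a log2 ratio of 1.56 in H3E50A over WT H3, and PFK27, which makes the activator of glycolysis fructose-2,6-bisphosphate, of -2.23. PFK27 was also the lowest of this list in both H4 mutants, at -1.25 in H4K16Q and -1.66 in H4H18A, where CDC19 was the highest, at 2.17 in H4K16Q and 1.63 in H4H18A. In H4K16Q over H4H18A this list ran from 0.15 for PFK1 to 0.66 for PYK2.

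**Figure D5:**
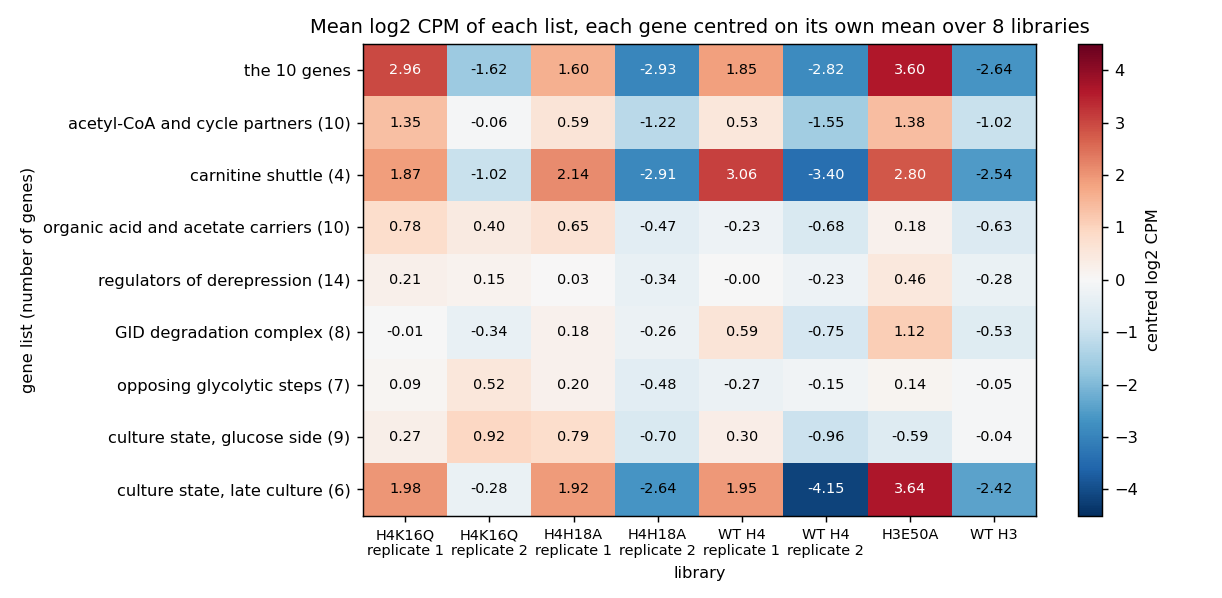
Mean log2 CPM of each list in each library, each gene centred on its own mean over the 8 libraries, with the number of genes of each list in parentheses. The 10 genes run from -2.93 in H4H18A replicate 2 to 3.60 in H3E50A, the carnitine shuttle from -3.40 to 3.06, and the regulators from -0.34 to 0.46.

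Likeness to the 10 genes was measured as the root mean square difference, over the 8 libraries, between a gene's centred log2 CPM and the mean of theirs. Of 5952 other genes the nearest was IDP2, at 0.44, then NDE2, a mitochondrial NADH dehydrogenase, at 0.54, ACH1, which acts on acetyl-CoA, at 0.56, PUT4, a proline permease, at 0.59, and YAT2 of the carnitine shuttle at 0.64. NDE2 was at 614 and 46.6 CPM in H4K16Q, 292 and 16.1 CPM in H4H18A, 355 and 10.4 CPM in WT H4, 552 CPM in H3E50A and 24.7 CPM in WT H3. ACH1 was at 2182 and 367 CPM in H4K16Q, 1859 and 57.3 CPM in H4H18A, 1809.8 and 50.7 CPM in WT H4, 6275 CPM in H3E50A and 94.4 CPM in WT H3. Among the 10 themselves, SFC1 and JEN1 lay nearest to the common pattern, at 0.46 and 0.53, and PCK1 and MLS1 farthest, at 1.68 and 1.51, with swings between libraries larger than the mean. PCK1 and MLS1 were each other's nearest gene of the 10, at 1.07, as were SFC1 and JEN1, at 0.65, and MDH2 and CAT8, at 0.85. The 8 points share libraries and strains, so this likeness is a description.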

How the data were processed

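RNA-seq libraries of 16 h cultures (2 each for H4K16Q, H4H18A and WT H4, 1 each for H3E50A and WT H3) were assigned by their titles. The authors made stranded total RNA libraries, sequenced pairs of 100 base reads, trimmed them with Trim Galore, mapped them with STAR to R64 and used featureCounts for the counts per gene. Versions and the strand setting are not given in the sources used here, and without strand a gene and an antisense transcript cannot be told apart. The deposited counts are raw whole numbers for 6600 features. The authors' tables of their own edgeR comparisons of 1 mutant with 1 WT library hold fold changes and p-values and were not used.

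Positions and windows come from the RefSeq annotation of R64, where 5917 features matched. The 6 H4 libraries were fitted together by edgeR 4.0.16 under R 4.3.3 (with limma 3.58.1 installed), using TMM scaling, filterByExpr (minimum count 10, minimum total count 15), the quasi-likelihood test and Benjamini-Hochberg adjustment over 5669 genes at 0.05. H3E50A was set against WT H3 as a log2 CPM ratio (prior count 2) in 5962 genes. Intervals for counts are exact at 95%. The script was checked on simulated data, with a spread between replicates that was not matched to that of the 10 genes. DESeq2 1.42.0, other scaling, no filter, a replicate block, other controls, removal of ribosomal RNA features and YGL088W, and leaving out each library were the alternatives.

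The 10 genes and the lists were chosen with earlier results of these data known. Named are the 10 genes, 29 genes picked from the lists, the highest and lowest gene of each pathway or culture list in each comparison, and the 5 nearest genes. LEU2, HHT1 and HHF1, as genotype checks, and CTT1, as the remaining late culture marker, are named outside this rule. HXT6 and YGL088W were named after their values were seen.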

Additional observations from a re-analysis of the deposited data

How the results depend on the processing

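In every alternative run, 0 of the 10 genes were called in each H4 comparison, while DESeq2 called 12 genes of all in H4K16Q against WT H4, 0 in H4H18A and 6 between the mutants, and leaving out WT H4 replicate 2 led edgeR to call 58 and 13 genes in the mutants. Leaving out 1 library at a time, the median log2 fold change of the 10 genes ran from -3.001 to 4.27 in H4K16Q, from -4.64 to 3.60 in H4H18A and from -2.39 to 4.58 in H4K16Q over H4H18A, the extremes coming from the removal of a replicate 1 library. The other alternatives left these medians within the spread between replicates, although that of H4H18A turned to 0.050 with all 3 WT libraries as control. With the mean of the 3 WT libraries as control, the median in H3E50A was 4.43, against 6.08 with WT H3 alone. Against WT H3 without the ribosomal RNA features and YGL088W, it was 5.90. Scaling by total counts moved the median of all genes to -0.26 in H4K16Q, -0.56 in H4H18A and 0.36 between the mutants. The median of the 10 genes was then 1.52 in H4K16Q, -1.03 in H4H18A and 2.28 between the mutants. A lone library left in a strain was assumed to vary like the other strains.

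Replicate numbers were checked for pairing by the correlation of replicate differences over 5669 genes, which was 0.13 for H4K16Q with WT H4, 0.43 for H4H18A with WT H4 and -0.011 for the mutants. With 2 numbers that the labels tie to no shared day, they were treated as numbers only. The replicate block gave 0 called genes of the 10, and medians of 1.22 in H4K16Q, -0.20 in H4H18A and 1.25 between the mutants. With it, 1 of the 10 genes in H4K16Q had an unadjusted p under 0.05, beside 288 of 5669 genes. In H4H18A 0 of the 10 did, beside 136 of 5669, and between the mutants 2 of the 10, beside 99 of 5669.

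Single genes near 0 changed sign. In H4H18A against WT H4, MLS1 was 0.057 with RLE scaling, 0.063 with DESeq2, 0.0031 with 8 libraries in 1 fit, 0.052 without ribosomal RNA features and 0.57 with 3 WT libraries as control. SFC1 was 0.045, 0.082, 0.039 and 0.48 under the same settings other than the fit of 8, and 0.34 with the replicate block. ICL1 was -0.47 with total counts and -0.029 with the replicate block, and with 3 WT libraries PCK1 was 0.026 and JEN1 0.073. In H4K16Q against WT H4, the replicate block gave 0.14 for JEN1 and 0.36 for CAT8, and 3 WT libraries gave 0.055 and 0.13. In H4K16Q over H4H18A, JEN1 was 0.90 with total counts, 0.014 with no filter, 0.0064 with 8 libraries, 0.033 without ribosomal RNA features and 0.73 with the replicate block. The cause was not tested.

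Leaving out 1 library at a time, the log2 fold changes of single genes covered these ranges. In H4K16Q against WT H4, MLS1 ran from -3.38 to 7.21, ICL1 ran from -1.22 to 4.16, MDH2 ran from 0.81 to 3.75, PCK1 ran from -4.15 to 8.88, FBP1 ran from -2.37 to 4.47, ACS1 ran from -2.92 to 6.70, ADY2 ran from -3.68 to 3.72, JEN1 ran from -3.55 to 3.92, SFC1 ran from -3.09 to 4.39 and CAT8 from -0.92 to 2.14. In H4H18A against WT H4, MLS1 ran from -5.06 to 4.90, ICL1 ran from -2.39 to 2.34, MDH2 ran from -0.19 to 2.61, PCK1 ran from -7.49 to 5.81, FBP1 ran from -5.35 to 2.34, ACS1 ran from -4.90 to 4.61, ADY2 ran from -4.38 to 3.47, JEN1 ran from -5.21 to 3.94, SFC1 ran from -2.91 to 3.73 and CAT8 from -1.78 to 1.97. In H4K16Q over H4H18A, MLS1 ran from -3.44 to 7.40, ICL1 ran from -1.44 to 4.39, MDH2 ran from -0.42 to 2.52, PCK1 ran from -3.68 to 10.07, FBP1 ran from -1.90 to 6.97, ACS1 ran from -1.78 to 5.82, ADY2 ran from -2.88 to 3.79, JEN1 ran from -3.15 to 4.76, SFC1 ran from -3.14 to 3.58 and CAT8 from -0.52 to 1.58.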
